A study of Mus musculus with 3 samples.

Results

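The KAP1 peaks described here lie beside H3K9me3 without touching it. They are peaks of the KAP1 list that share no base with an H3K9me3 region but have such a region within 10 kb. They also have a score of 800 or less and do not belong to a chain of 10 or more KAP1 peaks separated by gaps of 10 kb or less. Of the 19549 KAP1 peaks, 4281 (21.9%) met the condition on distance. From these, 89 were left out for their score and 157 for their chain, with 51 counted under both, so 4086 flanking peaks remained (20.9% of the list). The H3K9me3 list held 39526 regions. The peaks were thus selected on their distance to H3K9me3, their score and their spacing, and what those values show is a description of the choice.

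The material was C2C12, an established mouse myoblast line of C3H origin, kept proliferating in serum, with no treatment in the libraries used. Chromatin was cross-linked with formaldehyde and sonicated. One library was immunoprecipitated with a home-made rabbit antibody against KAP1 and 1 library with an antibody against H3K9me3; a library without antibody is not analysed here, so whether the peaks also stand above the signal without antibody was not tested. With 1 library per antibody there is no replicate and no test, the read depth is unknown, and the cell type cannot be checked against markers in peak lists. Intervals are 95% intervals for counting error over peaks or regions, and neighbouring peaks are not independent of one another.

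KAP1 (TRIM28) is a corepressor that binds no DNA sequence of its own and is brought to chromatin mainly by KRAB zinc finger proteins. It recruits SETDB1, which trimethylates lysine 9 of histone H3, and the resulting mark is bound by HP1 proteins. H3K9me3 can extend from a recruitment site into neighbouring nucleosomes, and in mammals the pathway is best known for silencing endogenous retroviruses and for marking zinc finger genes and imprinting control regions. In myoblasts KAP1 has also been described as a partner of the muscle regulator MyoD. A KAP1 peak next to H3K9me3 but outside it is therefore a case where the corepressor and the mark were called in the same neighbourhood and not at the same bases.

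Flanking peaks crowded towards the edge of H3K9me3. The median distance to the nearest region was 2650 bp (2649.5, interval 2533 to 2792), counted from the nearest ends and with 1 bp for adjoining bases. Within 500 bp of a region lay 720 of the 4086 peaks (17.6%, interval 16.5 to 18.8), within 1 kb 1198 (29.3%, interval 27.9 to 30.7), and within 5 kb 3015 (73.8%). Since less sequence lies far from a region than near one where regions are close together, counts were divided by the number of bases at each distance. The density was 16.9 peaks per Mb at 1 to 1000 bp (interval 16.0 to 17.9), 8.03 at 1 to 5 kb and 4.53 at 5 to 10 kb (interval 4.26 to 4.81). The nearest kilobase was thus 3.73 times as dense as the sequence 5 to 10 kb away (interval 3.43 to 4.06). Peaks beyond 10 kb that met the same score and chain limits had 3.55 per Mb at 10 to 20 kb and 3.28 at 20 to 50 kb.

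The decline with distance was not even. In steps of 500 bp the density was 19.2 per Mb at 1 to 500 bp, 14.3 at 501 to 1000 bp, 9.51 at 1001 to 1500 bp and 7.23 at 1501 to 2000 bp. It then lay between 8.46 and 9.09 in each of the 4 steps from 2001 to 4000 bp. Beyond that it was 6.57 at 4001 to 4500 bp and 3.79 at 6001 to 6500 bp. A shoulder at 2 to 4 kb therefore separated the steep inner part from the outer tail. Its density was 1.46 times that at 4 to 6 kb (interval 1.31 to 1.61) and 1.20 times that at 1.5 to 2 kb (interval 1.03 to 1.40). The shoulder was noticed after the profile had been seen. The drop beyond 4 kb had a ratio of 1.40 to 1.67 in all 9 subsets examined. These were the sides of the region, narrow or wide regions, regions with or without KAP1, lower or upper scores, and all chromosomes but 15. The subsets are parts of the same peaks. Any profile that falls with distance gives a ratio above 1 here, so this ratio alone does not show a shoulder. The dip before the shoulder was less regular. Its ratio was 1.39 (interval 1.12 to 1.75) for peaks at lower coordinates than their region and 1.05 (interval 0.858 to 1.29) for those at higher coordinates. The dip ratio was also 1.08 (interval 0.889 to 1.31) around the narrower regions. It was 1.27 (interval 0.903 to 1.81) around regions holding KAP1 and 1.10 (interval 0.897 to 1.36) for the upper scores. In the remaining subsets the interval began above 1.

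**Figure D1:**
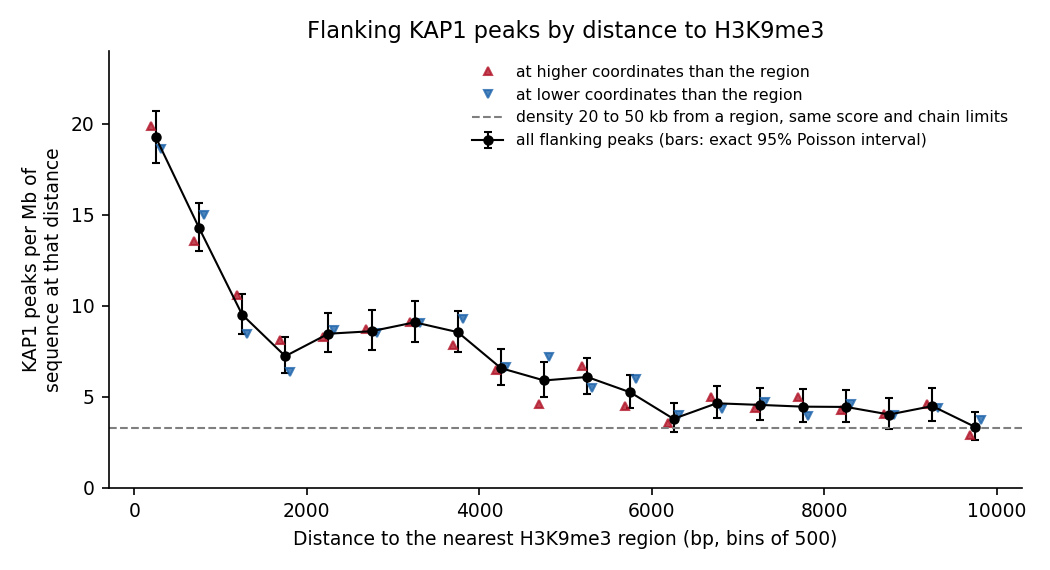
Density of flanking KAP1 peaks (peaks per Mb of sequence) against distance to the nearest H3K9me3 region in bins of 500 bp; black points are all flanking peaks with exact 95% Poisson intervals, triangles are the sides of the region, and the dashed line is the density 20 to 50 kb away. The density is 19.2 per Mb in the first bin, 7.23 at 1501 to 2000 bp and between 8.46 and 9.09 from 2001 to 4000 bp. It is 3.79 at 6001 to 6500 bp, from 4.03 to 4.64 between 6.5 and 9 kb, and 3.33 in the last bin. All bins lie above the dashed line at 3.28. The intervals at 6001 to 6500 bp, at 8501 to 9000 bp and in the last bin include that value.

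The inner edge of the profile was highest at 101 to 300 bp. The density was 17.7 per Mb in the first 100 bp (140 peaks, interval 14.9 to 20.9), 22.5 at 101 to 200 bp and 23.3 at 201 to 300 bp (174 peaks). The first 100 bp had 0.774 times the density of 101 to 300 bp (interval 0.632 to 0.944), a comparison made after the profile had been seen. At 301 to 500 bp and at 501 to 750 bp the density was 16.2 per Mb, below that of the first 100 bp and within its interval. Some peaks all but touched the mark. On chromosome 7 a peak at 36709983 to 36710463 (score 85.2) began at the base after an H3K9me3 region of 683 bp ended. On chromosome X a peak at 78896244 to 78897233 (score 186.8) lay 2 bp from a region of 2490 bp that held another KAP1 peak. On chromosome 4 a peak at 60628814 to 60629565 (score 70.4) lay 2 bp from its region, and peaks on chromosome 14 at 107122941 and on chromosome X at 43169593 lay 3 bp away. Just past this limit, peaks on chromosome 4 at 118519213 and chromosome 5 at 68612550 shared 2 bp with a region and were counted as overlapping. At the outer limit, a peak on chromosome 14 at 54748027 lay 9998 bp away and was kept, and a peak on chromosome 4 at 60581261 lay 10014 bp away and was not.

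Flanking peaks had no preferred side. With coordinates as the only orientation available, 2042 lay above their nearest region and 2044 below it (50.0%, interval 48.5 to 51.6). Within 1 kb the numbers were 599 and 599, and at 5 to 10 kb 533 and 538. No peak was equally far from regions on both sides.

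Some of the flanking peaks sat in gaps of H3K9me3 rather than at its outer border. Of the 4086, 743 (18.2%, interval 17.0 to 19.4) had a region within 10 kb on both sides, 202 (4.94%) within 2 kb on both sides and 95 (2.33%) within 1 kb on both sides. Peaks with H3K9me3 on both sides were closer to it, with a median distance of 942 bp (interval 804 to 1083), against 3157 bp (interval 3003 to 3305) for the 3343 with it on 1 side. In a gap the distance to the nearest region cannot exceed that of the middle. The gap that held them had a median length of 5768 bp and ran from 675 to 21556 bp. Their KAP1 scores were like those of the others, with medians of 93.7 (interval 90.9 to 96.2) on both sides and 92.5 (interval 91.3 to 93.8) on 1 side. The nearer of the 2 regions was the wider in 352 of 741 peaks with unequal regions (47.5%, interval 43.9 to 51.1), so the peaks did not lie mainly beside the wider one.

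Short gaps were dense in flanking peaks. Gaps of 1001 to 2000 bp between neighbouring regions held 24.4 flanking peaks per Mb (82 peaks in 2337 gaps, interval 19.4 to 30.2). Gaps of 2001 to 3000 bp held 19.4 per Mb and those of 3001 to 5000 bp 19.4, against 11.8 in gaps of 5 to 10 kb and 7.96 (interval 7.26 to 8.72) in gaps of 10 to 20 kb. Every base of a gap of up to 2000 bp lies within 1 kb of a region, where the density over the whole list was 16.9 per Mb. These values thus restate the distance profile in part, and gap length apart from distance was not tested. Gaps of 501 to 1000 bp held 6.13 per Mb (12 peaks), and the 2161 gaps of up to 500 bp held none. The median flanking peak, at 619 bp, was wider than those shortest gaps. Most gaps held no such peak at all: the share with any was 3.51% at 1001 to 2000 bp and 9.62% at 10 to 20 kb.

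The peaks between the broadest pairs of regions show the range of settings. On chromosome 17 a peak at 17401932 to 17402949 (score 169.1) lay in a gap of 10655 bp, 4704 bp above a region of 14630 bp and 4935 bp below a region of 1382 bp, neither of which held KAP1. On chromosome 10 a peak at 78880314 to 78880897 (score 72.4) lay in a gap of 1876 bp between regions of 8030 and 2036 bp, again with no KAP1 in either. On chromosome 1 a peak at 120040208 to 120040604 (score 76.5) stood 1388 bp below a region of 8058 bp that held 3 KAP1 peaks. The peak on chromosome 18 at 3056655 to 3058024 (score 180.0) lay 3424 bp above a region of 7219 bp that also held 3. On chromosome 15 a peak at 97385551 to 97386191 (score 133.3) stood 1387 bp above a region of 6957 bp that held 1. Over all 743 peaks between regions, KAP1 was present in both regions for 86, in 1 of them for 170 and in neither for 487 (65.5%, interval 62.1 to 68.9). The same share for all pairs of neighbouring regions was not computed. Of all single H3K9me3 regions, 15.4% held a KAP1 peak.

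Flanking peaks were weak calls. The authors' KAP1 score begins at 70, and the flanking peaks ran from 70.04 to 783.0 with a median of 92.7 (interquartile range 79.3 to 118.2). A score over that of the list's middle peak was reached by 1379 of them (33.7%, interval 32.3 to 35.2), against 50% of all peaks. Under the same score and chain limits, the median was 134.4 (interquartile range 93.4 to 219.2) for the 8559 peaks that overlapped H3K9me3 and 93.7 (79.7 to 121.7) for the 6203 peaks more than 10 kb away. In score the flanking peaks thus stood beside the distant peaks, with overlapping intervals of the median (91.6 to 93.9 for flanking, 92.8 to 94.5 for distant), and well below the overlapping ones. In width they lay between, with a median of 619 bp (interval 612 to 626) against 731 bp (interval 725 to 737) for overlapping and 581 bp (interval 576 to 585) for distant peaks.

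Scores were slightly lower within 1 kb of the mark than at 5 to 10 kb, with the low medians at 301 to 1000 bp. The median was 90.4 (interval 89.2 to 92.4) within 1 kb, 93.0 (interval 91.3 to 94.8) at 1 to 5 kb and 94.97 (interval 92.7 to 97.3) at 5 to 10 kb. The difference between the nearest and the farthest class was -4.55 (range -8.02 to -0.27). Such a range joins the ends of 2 separate median intervals and is not itself a 95% interval of the difference. In finer steps the median was 95.9 at 1 to 100 bp, 93.5 at 101 to 200 bp and 95.7 at 201 to 300 bp. It was 87.5 at 301 to 500 bp, 88.5 at 501 to 750 bp and 89.5 at 751 to 1000 bp. Scores thus did not fall steadily towards the edge. Spearman's rho of score with distance over the 4086 peaks was 0.043, as a description of peaks that share a library. The difference was negative under 9 of 10 alternatives. Its range included positive values without regions under 200 bp (-4.03, range -8.1 to 0.1) and without chromosomes 15, X and Y (-4.24, range -7.24 to 0.26). The difference was -12.82 (range -23.77 to -5.91) among KAP1 peaks scoring in the upper 50%. Against the upper 50% of H3K9me3 regions alone it was 0.33 (range -3.81 to 5.50). That setting also changes which peaks are flanking, since a peak that overlapped only left-out regions can then count as flanking. When the peaks were divided by score into 4 classes of equal size, those of the highest class (1022 peaks, 118.2 to 783.0) were less concentrated at the edge. Their density within 1 kb was 2.68 times that at 5 to 10 kb (interval 2.25 to 3.19), against 3.97 to 4.35 times in the other 3 classes, whose intervals began at 3.36 or higher. Without chromosome 15 the ratio of the highest class was 3.05 (interval 2.52 to 3.68) and the others lay between 4.31 and 4.64. Median width was 627 bp within 1 kb (626.5), 631 bp at 1 to 5 kb and 590 bp at 5 to 10 kb.

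**Figure D2:**
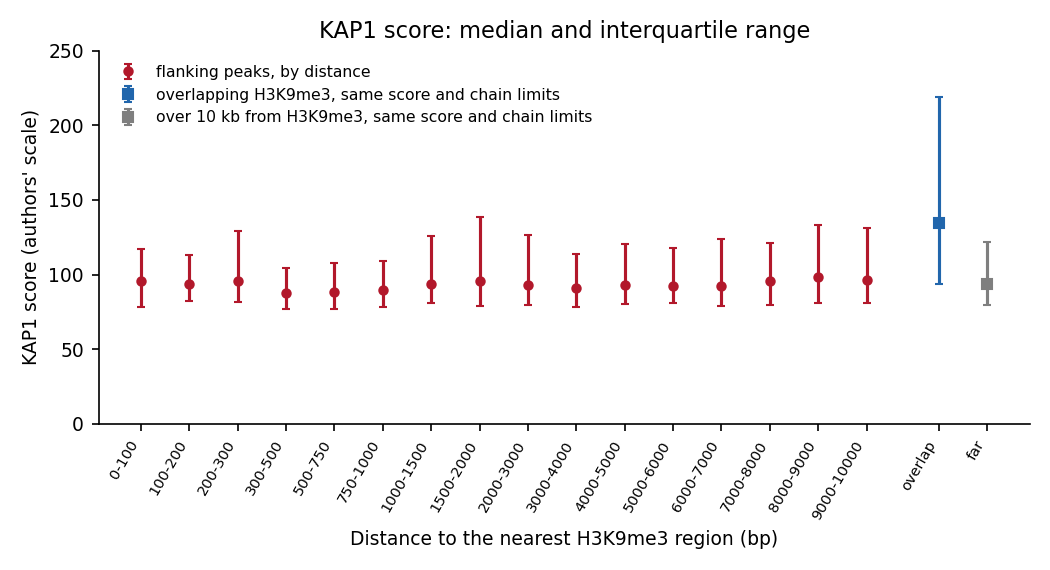
KAP1 score on the authors' scale (points: median, bars: interquartile range) of flanking peaks by distance to the nearest H3K9me3 region, with peaks that overlap H3K9me3 and peaks more than 10 kb away at the right, under the same score and chain limits. The medians of the distance classes lie between 87.5 and 98.5, near the 93.7 of distant peaks and below the 134.4 of overlapping peaks.

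The strongest flanking peaks lay from 414 to 7647 bp from the mark. The highest score, 783.0, belonged to a peak on chromosome 16 (18532703 to 18533469), 414 bp from a region of 548 bp. The next was on chromosome 2 at 98504884 to 98505615 (score 778.4, distance 4815 bp). Then came a peak of score 777.5 on chromosome 15 (5280571 to 5281611), 1992 bp from its region, and one of score 770.3 on chromosome 17 (7129575 to 7130630), 7647 bp away. The fifth, on chromosome 11 at 23123018 to 23125699 (score 769.8, 3667 bp), was the only peak of these 5 whose nearest region held another KAP1 peak. The 5 nearest regions were from 184 to 757 bp wide. All but the widest were narrower than 607 bp, the median of all H3K9me3 regions. Above the score limit, the next peaks left out were on chromosome 15 at 90208029 (score 814.8) and chromosome 13 at 22085722 (score 816.1). At the limit on chains, a peak on chromosome 7 at 7762814 in a chain of 9 was kept (score 89.96, distance 60 bp), and a peak on chromosome 15 at 76020287 in a chain of 10 was not (score 137.2, distance 2992 bp).

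The H3K9me3 regions beside these peaks were of ordinary size. The nearest region had a median width of 538 bp (interval 522 to 561, interquartile range 283 to 1051) and a median score of 48 on the authors' scale for that list. All H3K9me3 regions had medians of 607 bp (interval 600 to 614) and 53. Regions that held a KAP1 peak were far wider, with a median of 1666 bp. Per Mb of sequence within 10 kb, the 2 narrowest deciles of regions (up to 278 bp) had 9.18 and 9.19 flanking peaks, the other 8 deciles between 6.25 and 8.25, and the widest decile 7.13 (interval 6.39 to 7.93). Flanking peaks were therefore not denser around broad H3K9me3. Broad examples did occur. The widest region with a flanking peak nearest to it spanned 15589 bp on chromosome 5, from 23201816 to 23217404, and had a peak 119 bp above it (23217523 to 23217990, score 102.3). A region of 14858 bp on chromosome 11, from 120181530 to 120196387, held 5 KAP1 peaks and had a further peak 8866 bp above it (score 560.2). Those of 14630 and 13680 bp on chromosome 17, at 17382599 and 22846911, held none and had peaks 4704 and 5605 bp away. The fifth, of 12282 bp on chromosome 16 at 61323963, held 1 and had a peak 9986 bp above it.

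KAP1 inside the nearest region went with more KAP1 around it. The nearest region held another KAP1 peak for 818 of the 4086 flanking peaks (20.02%, interval 18.8 to 21.3), against 15.4% of all H3K9me3 regions. It held 1 such peak for 641, 2 for 120, 3 for 44, 4 for 11 and 5 for 2. For the remaining 3268 peaks (80.0%) the nearest region held none. Within 10 kb of regions that held KAP1 there were 10.8 flanking peaks per Mb (interval 10.1 to 11.6), and within 10 kb of regions without it 7.14 (interval 6.89 to 7.39), a ratio of 1.52 (interval 1.40 to 1.64). The ratio was 1.72 within 1 kb, 1.51 at 1 to 5 kb and 1.31 (interval 1.11 to 1.53) at 5 to 10 kb. Counting only the highest-scoring flanking peak per chain of KAP1 peaks, a choice made after the data were seen, gave a ratio of 1.40 (interval 1.28 to 1.53).

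Among regions of like width the ratio depended on the width. In the 6 deciles from 373 to 2192 bp the density around regions with KAP1 was 1.87 to 2.43 times that around regions without. It was highest in the decile from 481 to 607 bp, with 16.1 per Mb around regions holding KAP1 and 6.64 around the others. In the widest decile, which held 2423 of the 6101 regions with KAP1, the ratio was 1.33 (interval 1.05 to 1.69). The ratios of the 2 narrowest deciles, 1.25 and 1.40, had intervals that included 1.

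**Figure D3:**
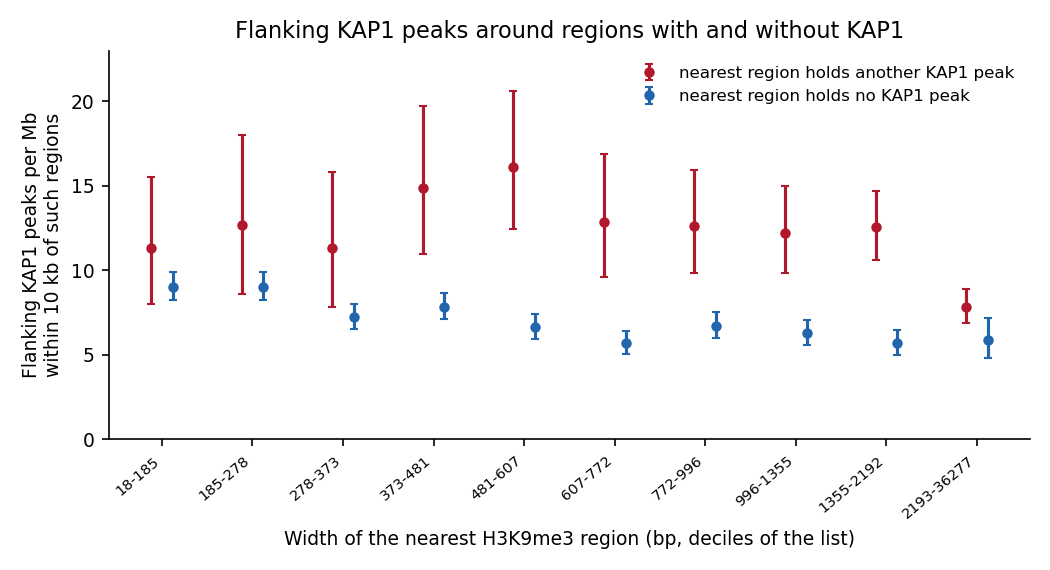
Flanking KAP1 peaks per Mb of sequence within 10 kb of H3K9me3 regions, by width decile of the region in bp, for regions that hold another KAP1 peak and regions that hold none, with exact 95% Poisson intervals. Regions with KAP1 lie higher in every decile, most clearly at 481 to 607 bp (16.1 against 6.64 per Mb) and least in the narrowest and the widest deciles.

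Where a flanking peak and a peak inside the same H3K9me3 region could be paired, the flanking peak was usually the weaker. For the 641 flanking peaks whose region held exactly 1 KAP1 peak, the median score was 95.4 (interval 92.9 to 97.3) for the flanking peak and 113.6 (interval 109.4 to 120.9) for the inside peak. The flanking peak scored lower in 403 of 641 pairs (62.9%, interval 59.1 to 66.5). Their median widths were 636 and 685 bp in the same order. Over all 818 flanking peaks, paired with the highest-scoring peak inside the region, the gap between them had a median of 2577 bp (2576.5), and 224 pairs (27.4%) were within 1 kb of each other. Flanking peaks are limited to a score of 800 and inside peaks are not, but only 7 of the 818 inside peaks exceeded it.

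About as many flanking peaks stood alone as had another KAP1 peak nearby. No other KAP1 peak lay within 10 kb of 2082 flanking peaks (51.0%, interval 49.4 to 52.5), against 45.8% of all KAP1 peaks, which include the long chains. Under the same score and chain limits the share was 26.9% for overlapping peaks and 72.0% for distant peaks, so the flanking peaks stood between them. Spacing was among the values that chose the peaks, and these shares are a description. Under the rule the other 2004 belonged to chains of 2 to 9 peaks. The nearest KAP1 neighbour of those 2004 was another flanking peak for 1111 (55.4%), an overlapping peak for 807 (40.3%) and a peak more than 10 kb from H3K9me3 for 80. It lay at a median of 1935 bp (interval 1803 to 2149). Of the 1282 chains with a flanking peak, 833 (65.0%) also held an overlapping peak and 359 consisted of flanking peaks alone.

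Flanking peaks that shared a chain with an overlapping peak lay closer to H3K9me3. Distance and spacing both entered the choice of peaks, and such a chain brings a marked region near by its definition, so these values only describe the 3 settings. The 1087 flanking peaks in chains with an overlapping peak lay at a median of 1908 bp from H3K9me3, 36.2% of them within 1 kb. Those in chains without an overlapping peak (917) lay at 3310 bp, with 24.2% within 1 kb, and the 2082 isolated peaks at 2853 bp, with 28.0%. A region on both sides within 10 kb, which shortens the nearest distance, was present for 28.5% of those chained with an overlapping peak, 16.0% of those in other chains and 13.7% of isolated peaks. The nearest regions of peaks chained with an overlapping peak were also wider, with a median of 964 bp (interval 854 to 1026), against 461 bp in the other chains and 467 bp (466.5) for isolated peaks. Median scores were 96.2 in chains with an overlapping peak, 94.4 in the other chains and 90.4 for isolated peaks.

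Most H3K9me3 regions had no flanking peak as a neighbour, and few had several. The 4086 peaks had 3490 different nearest regions, 8.83% of the list. Of these, 3002 had 1 flanking peak, 401 had 2, 71 had 3, 12 had 4, 3 had 5 and 1 had 6. Where a region had exactly 2, they were placed on opposite sides in 126 of 401 cases (31.4%, interval 27.1 to 36.1) and on the same side in the others. The region with 6 was a short one on chromosome 1, from 113598171 to 113598390 (220 bp), with all 6 peaks above it between 113599953 and 113607050 and scores from 76.2 to 310.7. On chromosome 3 a region from 14234914 to 14236298, which held a KAP1 peak, had 5 flanking peaks above it between 14236596 and 14242292 (scores 84.2 to 301.7). On chromosome 4 a region from 60429471 to 60429904 had 5 below it between 60420141 and 60427028 (scores 86.4 to 249.3). In these places the peaks stood in a row on 1 side of the mark. The third region with 5, on chromosome 13 from 114071434 to 114071661 (228 bp), was narrower than the other two and held a KAP1 peak. It had 4 peaks below it and 1 above, between 114063275 and 114074594 (scores 90.6 to 441.5), so its peaks lay on both sides.

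Flanking peaks lay in surroundings rich in H3K9me3 beyond the distance that selected them. At 10 to 20 kb on either side, 3.25% of the sequence was in H3K9me3 regions around flanking peaks, 2.30% around overlapping peaks and 1.21% around distant peaks. The region that selected a flanking peak can reach into this span, and distant peaks have no region within 10 kb. The selection thus enters this contrast, and its part was not tested. At 20 to 100 kb the values were 2.30%, 2.01% and 1.59%, against 1.54% over the whole span of the list. In regions per Mb at 20 to 100 kb they were 22.7 around flanking, 19.3 around overlapping and 15.5 around distant peaks, against 15.3 over the whole span. The order was the same without chromosome 15 and under the same score and chain limits, with 2.18%, 1.94% and 1.49% at 20 to 100 kb. Where regions are dense, more sequence lies within 10 kb of one, and the part of this in the difference was not tested.

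**Figure D4:**
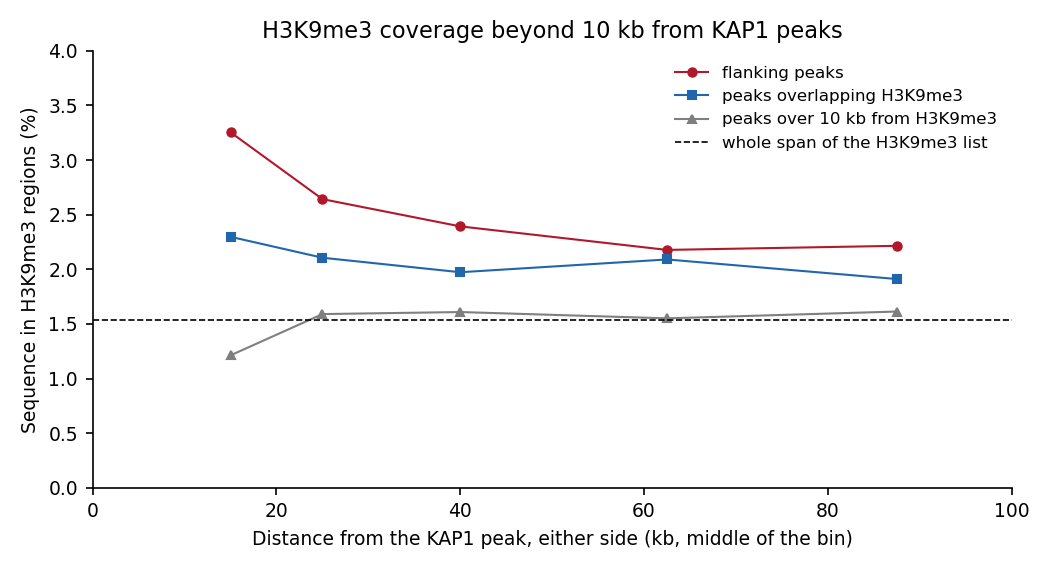
Percentage of sequence in H3K9me3 regions at 10 to 100 kb on either side of flanking KAP1 peaks, of peaks that overlap H3K9me3 and of peaks more than 10 kb from it; the dashed line is the whole span of the list (1.54%). Flanking peaks are highest at every distance shown, with 3.25% at 10 to 20 kb and 2.21% at 75 to 100 kb.

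Chromosomes 15 and X carried more flanking peaks than the rest. Chromosome 15 held 367 of the 4086 (8.98%), against 6.09% of all KAP1 peaks, and 30.8% of its KAP1 peaks were flanking (interval 28.3 to 33.5). On X the share was 26.0% (351 peaks, interval 23.8 to 28.4), against 20.9% over all chromosomes. Per Mb of sequence within 10 kb of H3K9me3 there were 10.2 flanking peaks on chromosome 15 (interval 9.15 to 11.3), 9.98 on X (interval 8.96 to 11.1) and 7.66 over all chromosomes. Chromosome Y held 7 flanking peaks, too few for a density.

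These 2 chromosomes differed in where their flanking peaks lay. On chromosome 15, 17.98% were within 1 kb of H3K9me3 and the median distance was 3533 bp, the longest of all chromosomes. On X, 37.9% were within 1 kb and the median was 2050 bp. Chromosome 15 also had the highest median score, 103.3, and the widest nearest regions, with a median of 722 bp. On X these values were 89.3 and 421 bp. With chromosome 15 left out, the density ratio of the nearest kilobase to 5 to 10 kb was 4.08 (interval 3.74 to 4.46). On the other autosomes, the share within 1 kb ran from 22.2% on chromosome 19 to 37.1% on chromosome 6, and the share of KAP1 peaks that were flanking ran from 15.6% on chromosome 19 to 23.5% on chromosome 1.

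**Figure D5:**
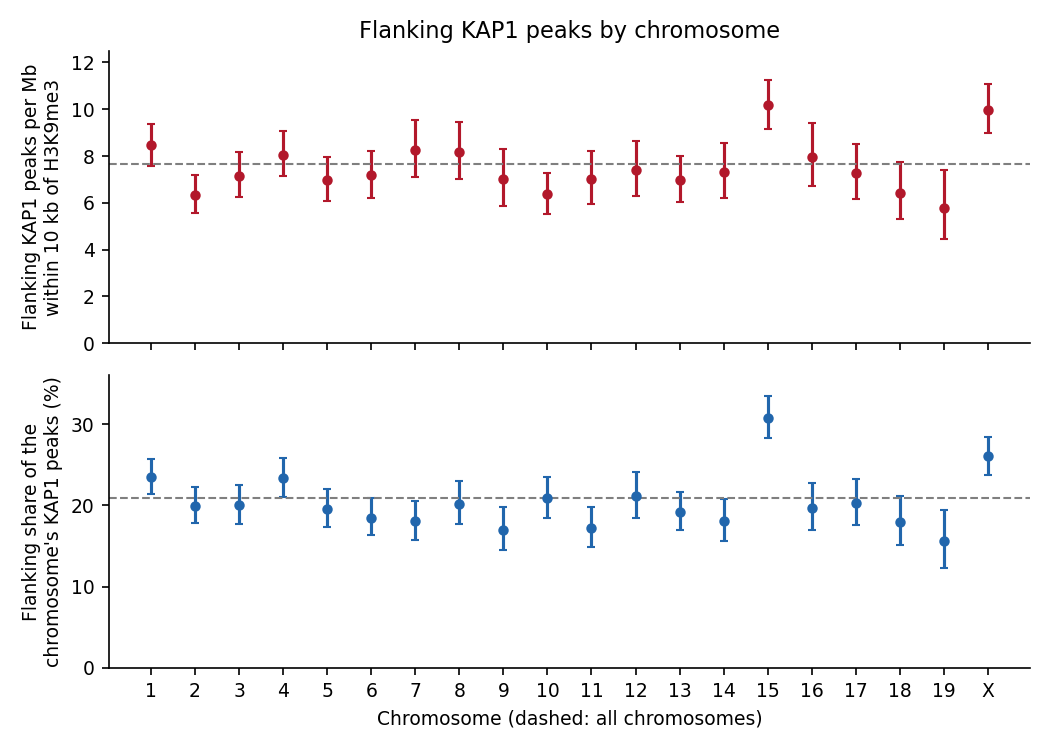
Flanking KAP1 peaks per Mb of sequence within 10 kb of H3K9me3 (upper panel, exact 95% Poisson intervals) and as a percentage of the KAP1 peaks of each chromosome (lower panel, 95% Wilson intervals); dashed lines are all chromosomes together. Chromosome 15 (10.2 per Mb, 30.8%) and X (9.98 per Mb, 26.0%) lie above the dashed lines.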

How the data were processed

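Per the submitters' processing notes, reads were handled with Bowtie2 2.2.1 and build mm9; which peak callers, settings and controls were applied is not given in the sources used here. The deposited score of each KAP1 peak and H3K9me3 region is the authors' value on an unstated scale, and was used only to describe, rank or filter within its own list. Peaks overlapped when they shared 1 bp. Density is the number of peaks whose nearest end lies at a distance, divided by the bases at that distance from the nearest region; each gap was split at its middle, and 6 peaks outside the first or last region of a chromosome were not counted. Assembly gaps and unmappable sequence were not excluded. Shares have 95% Wilson intervals, densities exact Poisson, ratios exact conditional binomial and medians order-statistic intervals. The flanking peaks and the measures were chosen with earlier results of these data known. Named regions are the 5 highest-scoring and the 5 nearest flanking peaks, those by the 5 widest regions and between the 5 broadest pairs, the 3 regions with most flanking peaks (ties by width; the tied region was added after its values were seen), and those at the limits of the rule. No mm9 sequence or annotation was used, so no genes or sequences are given. Distances, overlaps and the bases at each distance were checked by direct counting on 1 chromosome of the real lists. The density ratio was checked on simulated peaks of 1 bp, so the effect of peak width on density was not checked. Python 3.11.15, numpy 2.4.6, pandas 2.3.3 and scipy 1.17.1 were used. Positions are in mm9, counted from 1.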

Additional observations from a re-analysis of the deposited data

How the results depend on the processing

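The excess of flanking peaks near H3K9me3 and around regions with KAP1 had the same direction under all 11 listed alternatives that gave a value. The ratio of the nearest kilobase to 5 to 10 kb ran from 2.73 to 3.89 over these alternatives and was 4.08 with chromosome 15 alone left out, and that of regions with to regions without KAP1 from 1.40 to 1.86. Of 119 alternative values, 83 stayed within the interval (for counts, within 1.5 times, and for the score difference, within its range). All 11 for the side did. With an outer limit of 5 kb, the median distance was 1510 bp, the share within 1 kb 39.7%, that with H3K9me3 on both sides 15.3% and the median region width 514 bp; ratios to 5 to 10 kb cannot be had there. Among KAP1 peaks scoring in the upper 50% there were 1401 flanking ones, 25.6% within 1 kb, with a distance ratio of 3.04, a median score of 138.3, a score difference of -12.82, a region width of 600 bp, KAP1 in 16.3% of nearest regions and a KAP1 ratio of 1.86. Against the upper 50% of H3K9me3 regions there were 2704, with a median distance of 3060 bp, 26.6% within 1 kb, a distance ratio of 3.36, 13.0% between regions, a median score of 95.6, a score difference of 0.33, a region width of 1100 bp, KAP1 in 35.4% and a KAP1 ratio of 1.81. Without regions under 200 bp, 27.9% lay within 1 kb and 16.9% between regions, with a region width of 633.5 bp and KAP1 in 22.0%. Merging regions within 1 kb gave a width of 606.5 bp and KAP1 in 22.0%. Where a setting changed the list of peaks or regions, the share of all H3K9me3 regions with KAP1 was not computed. The 15.4% of the full list is no background for such settings. Counting peaks under 100 bp away as overlapping gave a median of 2795 bp and 26.8% within 1 kb. Distances from the peak midpoint gave 2984 bp, 22.8% and a ratio of 2.73. With 1 flanking peak per chain, added after the data were seen, the median score was 94.99, KAP1 was in 18.8% and its ratio was 1.40. The peak kept was the highest-scoring flanking peak of its chain, so by this choice the median score could not fall. The causes of these shifts were not tested beyond what each definition removes or newly admits. No paired analysis was possible because each antibody has only 1 library, which could not be left out either. Read depth is unknown, which limits what the lack of a call at a position can show.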
